A study of Macaca fascicularis with 9 samples.

Results

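Aminoacyl-tRNA synthetases are the enzymes that join each amino acid to its transfer RNA, the step that lets the ribosome read the genetic code. Most animal cells keep a pair of sets, both encoded in the nucleus: a cytosolic set that serves general protein synthesis, and a mitochondrial set that serves the few proteins translated inside mitochondria. GARS1 and KARS1 are exceptions, since each encodes both forms, and EPRS1 joins glutamyl and prolyl activities in 1 protein. Several cytosolic enzymes sit in a complex held together by scaffold proteins, and loss of a synthetase in people is linked to disorders of myelin, peripheral nerve and mitochondria.

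The synthetase genes were chosen by name: a letter for the amino acid followed by ARS, with an ending of 1, 2, 3, A or B, plus EPRS1. The rule found 36 of 29128 features in the deposited matrix, of which 14893 carry a gene symbol. Genes whose name ends in 2 were taken as mitochondrial, which gave 16 mitochondrial genes, and the other 20 were taken as cytosolic. The cytosolic genes described by name include AARS1, CARS1, FARSA, FARSB, LARS1, QARS1, RARS1, TARS1, TARS3, VARS1 and WARS1. The mitochondrial ones include AARS2, FARS2, HARS2, IARS2, LARS2, NARS2, RARS2, TARS2, VARS2 and YARS2. Seryl-tRNA synthetases were not analysed here.

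Nuclei came from frozen brain tissue, labelled thalamus, of 9 female cynomolgus monkeys (Macaca fascicularis) whose ages the labels do not state, and their RNA was counted in 10x Genomics droplets. The 3 ASO animals had received MALAT1 ASO, an antisense oligonucleotide against the nuclear noncoding RNA MALAT1, as 1 intrathecal injection of 4 mg. The 3 OTV animals had received OTV:MALAT1 into a vein at 30 mpk, given 4 times, and the 3 saline animals had received saline into a vein, also 4 times. Tissue was collected 2 weeks after the last dose in all 3 groups, so route, number of doses and agent differ together between the ASO animals and the others.

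The 79994 nuclei were counted in unique molecular identifiers (UMIs, each standing for 1 captured RNA molecule), with medians from 2579 per nucleus in OTV replicate 3 to 7791 in ASO replicate 2. MALAT1 made up 5.38 to 6.36% of UMIs in saline animals, 4.15 to 5.60% in ASO animals and 3.12 to 3.80% in OTV animals, so that the ASO and saline ranges overlapped and the OTV range lay below both. Markers of oligodendrocytes, their precursors (OPCs), myeloid cells, astrocytes and neurons were each highest in the authors' type of that name in 9 of 9 animals. Libraries stood apart in tissue makeup. Saline replicate 3 was 36.3% oligodendrocytes and 17.8% neurons, against 73.1 to 89.1% and 0.143 to 4.85% in the other libraries. In neuronal nuclei the summed striatal markers ran up to 7217 counts per 1000000 UMIs (CPM) in saline and 4948 in ASO animals, where thalamic markers ran up to 603 and 724, so the labelled region was not equally represented. In OTV animals the striatal markers spanned 335 to 531 and the thalamic ones 341 to 740. Most of the striatal sum in neurons was PDE10A (mean 1762 CPM over the 9 animals). RGS9 was at 198, DRD2 at 10.1, ADORA2A at 6.60 and DRD1 at 0.58 CPM. The striatal and thalamic sums hold different genes, so each compares animals and not 1 sum with the other. In astrocytes telencephalic patterning genes summed to 8.05 to 180 CPM in saline, 2.44 to 274 in ASO and 2.24 to 3.18 in OTV animals. A region score from astrocytes, higher for diencephalic tissue, was -4.66 to 1.76, -4.92 to 1.91 and 1.78 to 2.64 in that order, so that region and group cannot be fully told apart in OTV against saline. Transcripts of the mitochondrial genome spanned 45.2 to 264 CPM over the saline animals, 3.68 to 7.93 over the ASO animals and 545 to 1454 over the OTV animals. Of all nuclear barcodes, 760 occurred in more than 1 library.

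Levels are given as CPM within the animal's UMIs of that cell type. They compare a gene between cell types and animals, not 1 gene with another, because the values are not per transcript length. The cell types were named by the authors from the same counts, so levels by type are a description with no test. Of the 4 types with at least 20 nuclei in every animal, 1 was the highest in all 9 animals for 8 of the 36 synthetase genes, or 22.2%, and the highest type below is meant among these 4. Of the 15188 features with at least as many UMIs as the scarcest synthetase gene, 41.4% had such a type. The highest and the second type did not overlap for 4 of the 36 genes, TARS3, WARS1, RARS2 and FARS2, and overlapped for the rest. How many of all features lack such overlap was not counted, so how usual this is cannot be told.

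TARS3, which encodes a second cytosolic threonyl-tRNA synthetase, varied most between types. Its level was 553 ± 136 CPM (SD, n = 9 animals) in oligodendrocytes, with 320 as the lowest, 539 as the median and 789 as the highest animal. OPCs had 95.7 ± 22.1 CPM and astrocytes 81.3 ± 21.3 CPM. Myeloid nuclei had 43.0 ± 24.1 CPM. The lowest oligodendrocyte value thus exceeded the highest value of the 3 other types, and within animals oligodendrocytes stood 3.80 to 7.91 times above OPCs. Between OPCs and astrocytes the ranges overlapped. The general enzyme TARS1 had no such pattern, at 54.2 ± 15.0 CPM in oligodendrocytes, 50.9 ± 13.6 in myeloid nuclei and 34.5 ± 7.7 in OPCs. In neurons, where ASO replicates 1 and 2 had only 18 and 17 nuclei, TARS3 was at 144 ± 48.9 CPM.

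TARS3 was high in every oligodendrocyte cluster. The 7 clusters the authors placed in that type had mean TARS3 levels from 461 CPM in cluster 1 to 739 CPM in cluster 10, while the 3 OPC clusters had 76.0 to 109.9 CPM. A TARS3 UMI was found in 84.2% of oligodendrocyte nuclei (mean of 9 animals, median depth 5586 UMIs), in 42.9% of OPCs (7283 UMIs) and in 12.5% of myeloid nuclei (3803 UMIs). With each nucleus thinned to 1000 UMIs the shares were 39.1%, 9.28% and 4.30%, in the same order. The thinned myeloid share differed by group, at 1.43 to 2.18% in saline, 2.63 to 4.77% in ASO and 6.49 to 8.13% in OTV animals.

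Tryptophanyl-tRNA synthetase WARS1, a gene also known for its induction by interferon, was highest in myeloid nuclei in 9 of 9 animals. It was at 217 ± 47.0 CPM there (lowest 162, median 218, highest 296), against 97.9 ± 13 in astrocytes, 86.8 ± 25 in oligodendrocytes and 84.0 ± 18.4 in OPCs. The myeloid values did not overlap those of any of the 3 other types, whose ranges overlapped each other. RARS2, the mitochondrial arginyl enzyme, varied most among mitochondrial genes and was also highest in myeloid nuclei, at 105.5 ± 29.5 CPM (lowest 63.7, median 99.1, highest 153). Its mean was 38.4 ± 7.9 CPM in astrocytes, 35.3 ± 2.6 in oligodendrocytes and 34.9 ± 2.9 in OPCs, and none of these reached the lowest myeloid value. MARS1 and NARS2 were highest in myeloid nuclei in all 9 animals too, but their ranges overlapped the next type. MARS1 overlaps the protein-coding genes ARHGAP9 and DDIT3 in the RefSeq table, which need not be the annotation used for counting. How reads of the overlap were counted was not examined. The authors' myeloid type also held endothelial markers, at 189 to 890 CPM summed over 4 genes, against at most 15.9 in oligodendrocytes, OPCs and astrocytes. Nearly all of that sum was VWF (mean 612 CPM), while PECAM1 was at 34.1, FLT1 at 9.89 and EGFL7 at 0.93 CPM. Their part in these levels was not tested.

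Phenylalanyl-tRNA synthetase FARS2, the single-chain mitochondrial enzyme, was highest in astrocytes in 9 of 9 animals. It was at 438 ± 41.5 CPM there (lowest 372, median 446, highest 497), against 246 ± 21.1 in myeloid nuclei, 199 ± 16.5 in OPCs and 185 ± 12 in oligodendrocytes. Astrocyte values lay above those of the 3 other types and of neurons (198 to 343). Of 2 clusters the authors left unnamed, cluster 16 (118 nuclei) had a higher FARS2 level, 692 and 827 CPM in the 2 animals with at least 20 of its nuclei, and cluster 15 had 85.5 to 313. Of the genes for the cytosolic enzyme of the same amino acid, FARSA, 1 of its subunits, had the same order of the 4 types with overlapping ranges. It was at 23.7 ± 4.65 CPM in astrocytes and 22.7 ± 4.1 in myeloid nuclei. OPCs had 19.5 ± 3.8 and oligodendrocytes 18.7 ± 2.3 CPM. Its ratio of the highest to the lowest type mean was 1.27, against 2.37 for FARS2, and astrocytes were highest in 6 of 9 animals. FARSB, the other subunit, did not share this order. It was highest of the 4 types in OPCs (42.3 ± 6.2 CPM) in 9 of 9 animals. Astrocytes were lower (25.3 ± 4.0), while neurons had 74.4 ± 24.9 CPM. TARS2, the mitochondrial threonyl enzyme, was highest in oligodendrocytes in 9 of 9 animals, at 34.7 ± 11.7 CPM against 24.0 ± 9.6 in astrocytes, with overlapping ranges.

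**Figure D1:**
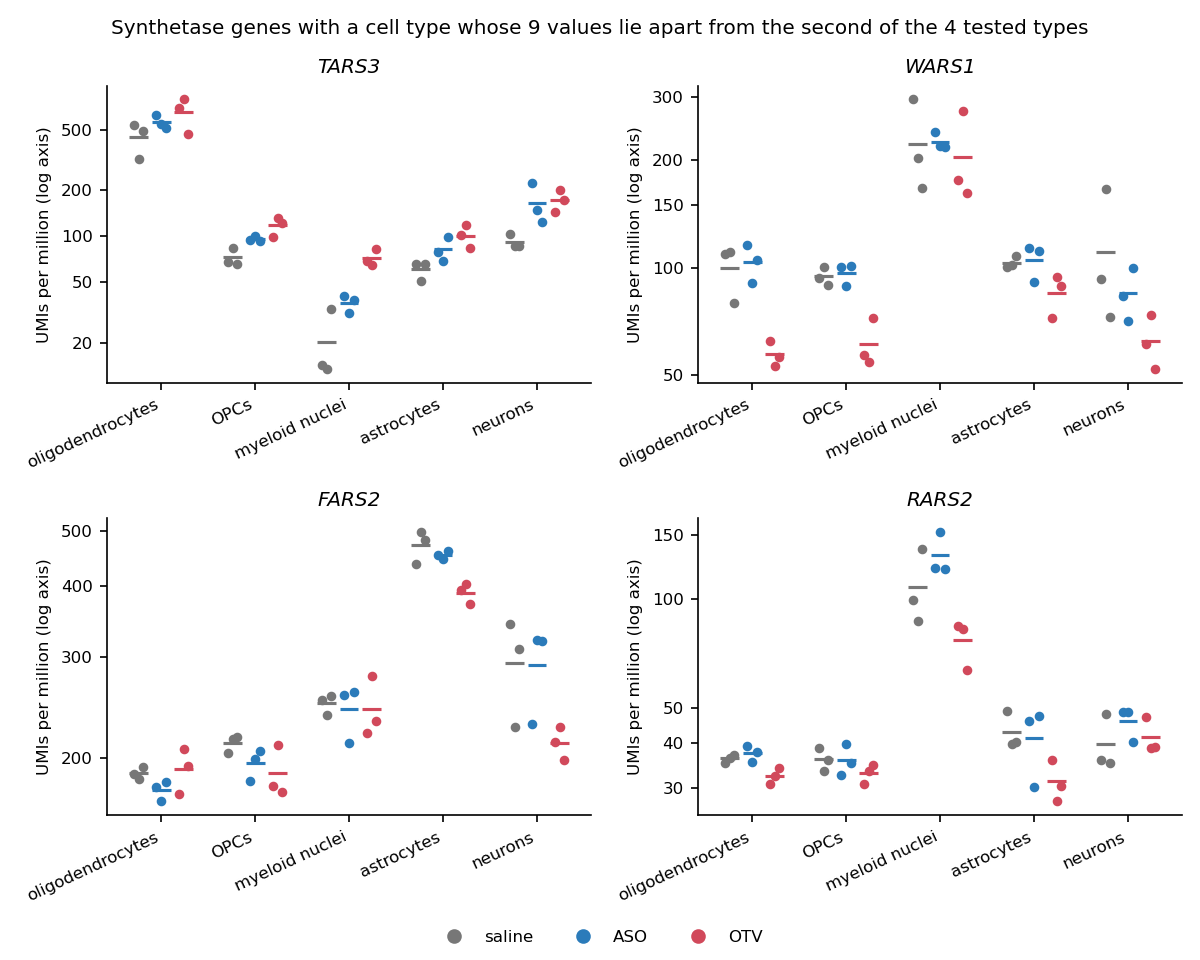
CPM (log axis) of TARS3, WARS1, FARS2 and RARS2 in 5 cell types, 1 point per animal, coloured by group, with the group mean as a bar. The lowest TARS3 value in oligodendrocytes (320) lies above every value of the other types shown, and FARS2 stands apart in astrocytes (372 and more).

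The ratio of the highest to the lowest type mean was 12.9 for TARS3 and 3.02 for RARS2, the largest values of the cytosolic and mitochondrial sets. It was 2.91 for LARS2 and 2.70 for AARS2, above the 2.58 of WARS1 and the 2.37 of FARS2, although the highest type of LARS2 and AARS2 overlapped the next. LARS2, the mitochondrial leucyl enzyme, was lowest in oligodendrocytes at 23.3 ± 3.3 CPM and reached 67.9 ± 6.9 in astrocytes, close to the 57.4 ± 10.7 of OPCs. IARS2, at 65.1 ± 12.5 to 77.6 ± 16.0 CPM, had the flattest profile of all 36. MARS2 and PARS2 were the scarcest, with 665 and 1534 UMIs in the whole data set.

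Summed over each set, cytosolic synthetase UMIs outnumbered mitochondrial ones in 3 of the 4 types. The ratio was 2.46 ± 0.27 (SD, n = 9) in oligodendrocytes, 1.47 ± 0.14 in myeloid nuclei, 1.41 ± 0.15 in OPCs and 0.985 ± 0.115 in astrocytes. Oligodendrocytes had the highest and astrocytes the lowest ratio in 9 of 9 animals, while myeloid nuclei and OPCs overlapped. TARS3 alone supplied 39.9% of the cytosolic UMIs of oligodendrocytes, and FARS2 48.4% of the mitochondrial UMIs of astrocytes. Without TARS3 the oligodendrocyte ratio was 1.47 ± 0.11, close to the 1.42 ± 0.12 of myeloid nuclei, and oligodendrocytes were the highest type in 6 animals and myeloid nuclei in 3. Without both genes the means lay between 1.73 in astrocytes and 2.20 in oligodendrocytes, and astrocytes were still the lowest type in 9 of 9 animals.

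**Figure D2:**
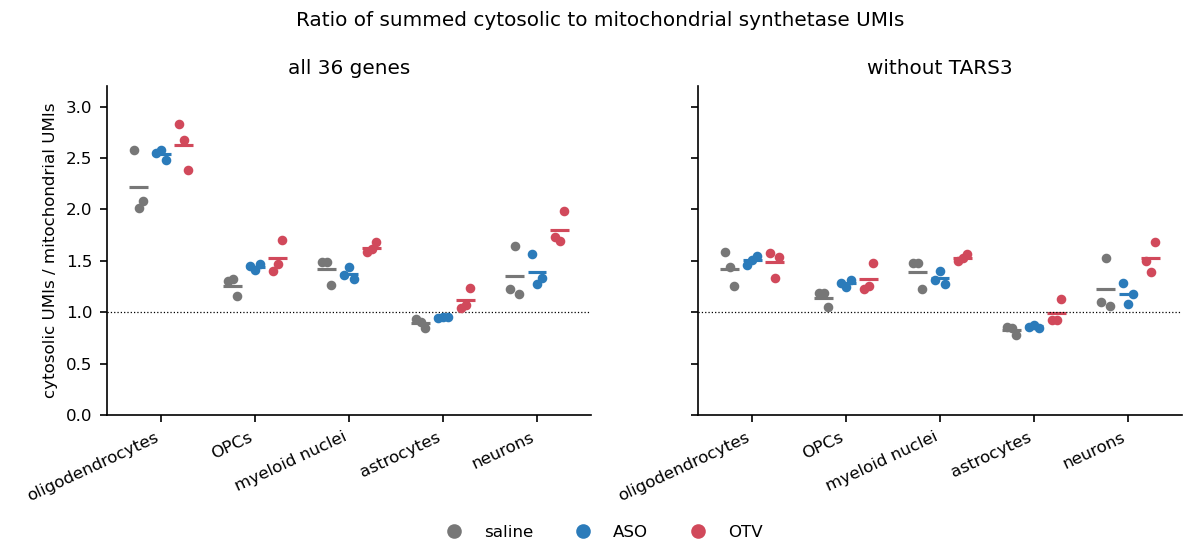
Cytosolic UMIs divided by mitochondrial UMIs (y axis) by cell type, 1 point per animal with group means as bars, with all 36 genes on the left and without TARS3 on the right. The dotted line marks equal numbers. Oligodendrocytes, at 2.46 on average with all genes, move to 1.47 without TARS3, and astrocytes have the lowest mean in both panels.

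By group, the ratio in astrocytes was 0.849 to 0.933 in saline, 0.942 to 0.952 in ASO and 1.04 to 1.24 in OTV animals, with no overlap between groups. In myeloid nuclei it was 1.26 to 1.49, 1.32 to 1.44 and 1.59 to 1.69. Here the OTV values lay above both other groups, which overlapped. In oligodendrocytes the 3 ranges overlapped, at 2.01 to 2.57, 2.48 to 2.58 and 2.38 to 2.83. OPCs had 1.15 to 1.32, 1.41 to 1.47 and 1.40 to 1.70, so that saline lay below ASO and OTV animals. Without TARS3 alone, OTV values still lay above saline values in astrocytes, at 0.919 to 1.13 against 0.781 to 0.860. The same held in myeloid nuclei, at 1.49 to 1.56 against 1.23 to 1.47, and in OPCs, at 1.23 to 1.48 against 1.05 to 1.19. In oligodendrocytes they overlapped. Without TARS3 and FARS2, OTV and saline animals overlapped in astrocytes, at 1.70 to 2.15 against 1.54 to 1.76. They also overlapped in myeloid nuclei, at 2.16 to 2.40 against 1.75 to 2.17, and in OPCs, at 1.76 to 2.16 against 1.61 to 1.79. ASO animals then had 1.63 to 1.74 in astrocytes, 1.86 to 1.92 in myeloid nuclei and 1.84 to 1.97 in OPCs. These sums over chosen genes were not tested.

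Differences between groups were tested with edgeR's quasi-likelihood test on UMI sums per animal. P values were adjusted by Benjamini-Hochberg over all features tested in a fit, and genes with an adjusted p under 0.05 are those called below. All 36 genes passed the filter on low counts in all nuclei and in oligodendrocytes, 35 (all but MARS2) in OPCs, myeloid nuclei and astrocytes, and 30 in neurons. A fold change in all nuclei mixes changes within cells with changes in cell type shares, and in summed RNA fewer cells of a type and less RNA per cell cannot be told apart.

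OTV animals against saline animals asked what the intravenous OTV:MALAT1 doses changed. TARS2 rose in all nuclei and in each of the 4 types, AARS1, VARS2, CARS1 and TARS3 each rose in 2 or more fits, and WARS1 fell in all nuclei, oligodendrocytes and OPCs. Most other synthetase genes did not pass the test. In all nuclei 3 of 36 genes were called (8.33%), against 15.7% of all features. Of these 2 were higher, where 5.72% of features were called higher, and 1 was lower, where 9.94% were. In oligodendrocytes 5 of 36 were called (13.9%) against 19.2% of features, 4 of them higher (features 7.52%) and 1 lower (features 11.7%). OPCs had 7 of 35 called (20.0%) against 22.1% of features, with 4 higher (features 10.2%) and 3 lower (features 11.9%). Myeloid nuclei had 3 of 35 (8.57%) against 12%, with 2 higher (features 4.76%) and 1 lower (features 7.26%). Astrocytes had 7 of 35 (20.0%) against 15.4%, with 5 higher (features 6.27%) and 2 lower (features 9.12%). Neurons had 1 of 30 (3.33%), which was higher, against 6.82% of features (2.52% higher, 4.3% lower). Over both directions these edgeR shares lay near the background or below it, except in astrocytes, where 20.0% stood above 15.4%. The reading for all nuclei depended on the test. With the DESeq2 Wald test the share of synthetase genes called there lay above that of all features, as given in the closing section. In the edgeR fits calls upward lay furthest above the share of features in astrocytes (5 of 35, features 6.27%) and oligodendrocytes (4 of 36, features 7.52%). They were slightly above it in OPCs, myeloid nuclei and neurons, and slightly below it in all nuclei. None of these shares was tested against the background. The 7 calls in astrocytes became 0 to 6 with 1 animal left out, with 0 called without saline replicate 1 or 2 and 2 called without OTV replicate 3.

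The median log2 fold change of OTV against saline in all nuclei was 0.24 over the 20 cytosolic genes and -0.06 over the 16 mitochondrial genes, beside -0.06 over all features. In oligodendrocytes the medians were 0.20 and -0.003 beside -0.02 over all features. In OPCs they were 0.32 and -0.04 beside -0.01, and in astrocytes 0.27 and -0.19 beside -0.02. Myeloid nuclei had 0.05 and -0.12 beside -0.03, and neurons -0.04 and -0.41 beside -0.02. Cytosolic medians lay above mitochondrial ones in all 6 fits, which share animals and are not independent. The same order held in all 6 fits of ASO against saline, where no synthetase gene was called, with medians of 0.12 and -0.12 in OPCs and 0.01 and -0.04 in astrocytes. Both comparisons use the same saline animals, so the shared order is not independent evidence. No test compared the sets. Both sets held genes of either sign: in all nuclei 14 of 20 cytosolic and 7 of 16 mitochondrial log2 fold changes were above 0.

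**Figure D3:**
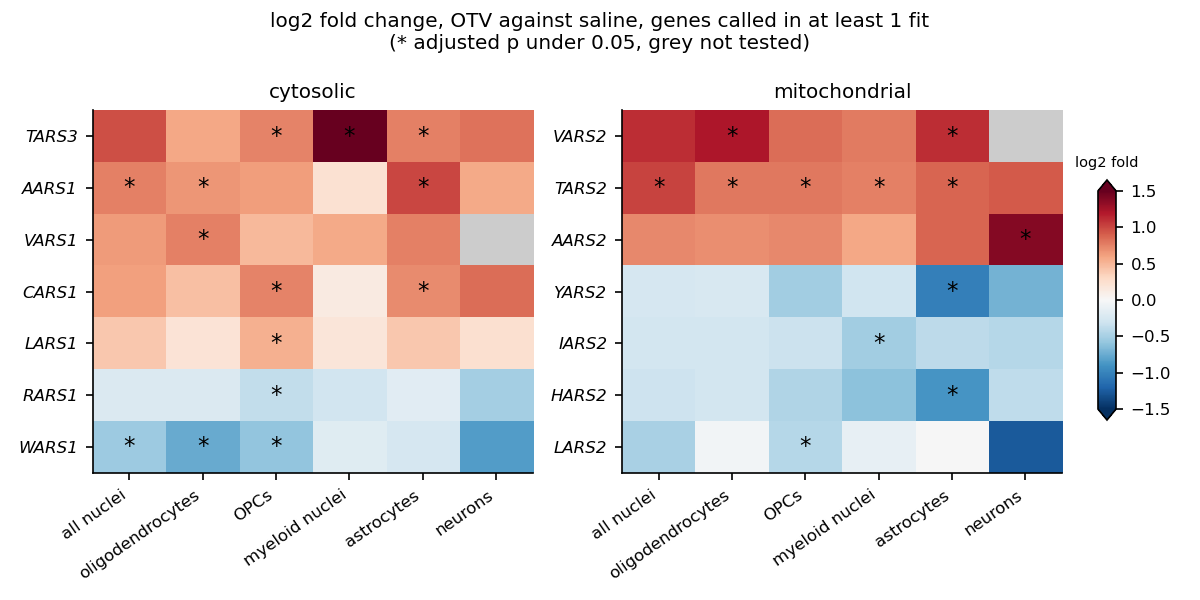
Log2 fold change of OTV against saline (colour) for the 7 cytosolic and 7 mitochondrial synthetase genes called in at least 1 fit (rows, ordered by all nuclei) in 6 fits (columns). An asterisk marks an adjusted p under 0.05 and grey a gene that was not tested. TARS2 is called in all nuclei and in all 4 types with at least 20 nuclei per animal, and WARS1, the lowest cytosolic row, in 3 fits.

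TARS2 attaches threonine to the mitochondrial transfer RNA. Its level in all nuclei was 27.1, 24.7 and 19.4 CPM in saline replicates 1 to 3, 21.6, 26.6 and 23.2 in ASO animals and 47.8, 51.4 and 34.8 in OTV animals. The OTV animals lay above all 6 others, and the log2 fold change against saline was 1.01 (SE 0.21, edgeR adjusted p = 0.0145). In oligodendrocytes saline animals had 29.9, 27.1 and 30.4 CPM and OTV animals 52.4, 55.5 and 38.6, up by 0.80 on the log2 scale (SE 0.16, adjusted p = 0.00997). In myeloid nuclei the values were 16.8, 16.0 and 15.9 CPM in saline, 13.1, 12.2 and 11.9 in ASO and 28.8, 28.6 and 27.9 in OTV animals, which was the tightest separation of the groups. The log2 fold change there was 0.75 (SE 0.19, adjusted p = 0.0280). TARS2 was highest in oligodendrocytes, and the summed markers of that type also differed by group within myeloid nuclei. As a mean share of their own oligodendrocyte level they stood at 12.6% for saline, 15.2% for ASO and 22.7% for OTV. How much of the myeloid TARS2 values came from oligodendrocyte RNA was not tested. TARS2 also rose in OPCs, by 0.79 (SE 0.20, adjusted p = 0.0172), and in astrocytes, by 0.87 (SE 0.24, adjusted p = 0.0352). In neurons it was 0.92 (SE 0.34) with an adjusted p of 0.125. The change of TARS2 thus ran from 0.75 to 0.87 over the 4 types. The oligodendrocyte call held under all 17 alternatives (adjusted p up to 0.0456), while in all nuclei it was lost without OTV replicate 1 (log2 fold change 0.92) or 2 (0.89) and with a term for the region score (0.87, adjusted p = 0.0735). In myeloid nuclei it was lost under 13 of 16 (adjusted p 0.0262 to 0.176), with log2 fold changes of 0.72 to 0.80 over the alternatives. The OPC call was lost under 4 of 16, among them without saline replicate 1 (0.75) or 2 (0.74) and OTV replicate 2 (0.62). The astrocyte call was lost under 8 of 16 (adjusted p up to 0.233), among them without any saline animal (0.88, 0.84 and 0.92) and OTV replicates 1 (0.74) and 2 (0.79).

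VARS2, the mitochondrial valyl enzyme, rose in oligodendrocytes, where saline animals had 7.82, 8.11 and 8.55 CPM, ASO animals 12.3, 5.03 and 6.62 and OTV animals 21.8, 12.9 and 19.9. The log2 fold change came to 1.21 (SE 0.33, adjusted p = 0.0298). It also rose in astrocytes, by 1.11 (SE 0.33, adjusted p = 0.0480). In all nuclei the difference was 1.11 (SE 0.34) with an adjusted p of 0.0627. OTV values lay above all saline values in these 3 fits, but ASO replicate 1 reached the lowest OTV value in all nuclei and in astrocytes. Its cytosolic counterpart VARS1 rose in oligodendrocytes as well, from 3.91, 4.01 and 3.75 CPM in saline to 6.72, 5.00 and 7.42 in OTV animals (log2 fold change 0.76, SE 0.20, adjusted p = 0.0292). The oligodendrocyte call of VARS2 was lost under 8 of 17 alternatives (adjusted p up to 0.138), among them leaving out each saline animal (log2 fold change 1.19, 1.19 and 1.24) and OTV replicates 1 (1.04) and 3 (1.17). Its astrocyte call was lost under 9 of 16 (adjusted p up to 0.152), among them without ASO replicate 2 (1.11), saline replicates 1 (1.08), 2 (1.03) and 3 (1.24) and OTV replicates 1 (0.85) and 3 (1.14). That of VARS1 was lost under 11 of 17 (adjusted p up to 0.150).

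AARS1 is the cytosolic alanyl enzyme. In all nuclei it was at 37.8, 32.8 and 27.1 CPM in saline, 30.2, 30.4 and 33.6 in ASO and 53.9, 44.1 and 56.2 in OTV animals, with the OTV animals above the rest. Its log2 fold change came to 0.76 (SE 0.17, adjusted p = 0.0182). In oligodendrocytes it was 0.66 (SE 0.15, adjusted p = 0.0157), from 42.2, 35.4 and 30.4 CPM in saline to 59.6, 47.5 and 58.8 in OTV animals. In astrocytes it rose by 1.00 (SE 0.29, adjusted p = 0.0445), but OTV replicate 3 had 45.4 CPM where the other OTV animals had 26.2 and 21.3, and without that replicate the change was 0.62 and not called. That call was lost under 12 of 16 alternatives (adjusted p up to 0.200), including the leaving out of any 1 animal other than OTV replicate 2. The call in all nuclei was lost under 6 of 16, among them without saline replicate 2 (0.77) or OTV replicates 1 (0.68) and 3 (0.67), and the oligodendrocyte call under 4 of 17, among them without saline replicate 2 (0.62) or OTV replicate 3 (0.63). OPCs had the same pattern at 31.9, 22.7 and 48.1 CPM in OTV animals, with an adjusted p of 0.0666. OTV replicate 3 was also the library with the fewest UMIs per nucleus, and the part of depth in this value was not tested. The gene overlaps the protein-coding gene EXOSC6 in the RefSeq table, and how reads of the overlap were counted was not examined.

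CARS1, the cytosolic cysteinyl enzyme, rose in OPCs from 23.7, 24.3 and 20.6 CPM in saline to 35.6, 39.97 and 36.3 in OTV animals, with ASO animals at 23.4, 22.8 and 26.0. The OTV animals were apart from both other groups, and the log2 fold change against saline was 0.74 (SE 0.14, adjusted p = 0.00359), called under all 16 alternatives. In astrocytes it rose by 0.71 (SE 0.17, adjusted p = 0.0187), from 27.7, 28.1 and 25.8 CPM to 41.6, 47.0 and 42.5. That call was lost under 6 of 16 alternatives, among them without saline replicate 1 (0.73), saline replicate 2 (0.75) and OTV replicate 3 (0.74). In oligodendrocytes the OTV values of 68.0, 46.2 and 38.3 CPM overlapped the saline values of 43.2, 30.5 and 42.7, and CARS1 was not called there (adjusted p = 0.207).

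WARS1 was the synthetase gene that fell in most fits. In oligodendrocytes it was at 109, 111 and 79.4 CPM in saline, 115, 90.4 and 105 in ASO and 62.4, 53.0 and 56.0 in OTV animals. Every OTV value was below every other, and its log2 fold change from saline came to -0.76 (SE 0.15, adjusted p = 0.00703). In OPCs it fell by 0.59 on the log2 scale (SE 0.12, adjusted p = 0.00542), from 93.5, 101 and 89.3 CPM in saline to 56.9, 54.2 and 72.1 in OTV animals. Both calls held under all alternatives. In all nuclei the log2 fold change came to -0.54 (SE 0.14, adjusted p = 0.0319), a call lost without any of saline replicates 1 (-0.50) and 2 (-0.49), ASO replicate 1 (-0.54) and OTV replicates 1 (-0.61), 2 (-0.57) and 3 (-0.54). In myeloid nuclei, where WARS1 was most abundant, saline animals had 296, 202 and 167 CPM and OTV animals 176, 276 and 162. These overlapped, and the log2 fold change came to -0.18 (SE 0.24, adjusted p = 0.673). Astrocytes had -0.25 (SE 0.14, adjusted p = 0.260). Whether the change of WARS1 differed between types was tested as a difference, with an adjusted p of 0.418.

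TARS3 rose in OPCs, myeloid nuclei and astrocytes. In OPCs it was at 68.2, 84.3 and 65.4 CPM in saline, 95.2, 99.7 and 93.4 in ASO and 99.4, 132 and 123 in OTV animals, a log2 fold change against saline of 0.74 (SE 0.13, adjusted p = 0.00234). In myeloid nuclei saline animals had 14.3, 13.5 and 33.2 CPM, ASO animals 40.8, 31.2 and 38.4 and OTV animals 69.2, 64.4 and 82.3, and the log2 fold change came to 1.83 (SE 0.32, adjusted p = 0.00614). In astrocytes it was 0.76 (SE 0.19, adjusted p = 0.0247). The OPC and myeloid calls held under all 16 alternatives. The astrocyte call was lost without saline replicate 1 (0.83) or 2 (0.65) and OTV replicate 1 (0.72) or 2 (0.70). In oligodendrocytes, its main site, saline animals had 539, 320 and 491 CPM and OTV animals 697, 789 and 467. Those ranges overlapped, and the log2 fold change of 0.58 (SE 0.24) had an adjusted p of 0.125. The test of whether the TARS3 change differed between types was not called (adjusted p = 0.0739), and in that joint fit the change exceeded that of oligodendrocytes by 0.07 in OPCs, 0.12 in astrocytes and 1.22 in myeloid nuclei.

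Oligodendrocyte RNA in the other types moved with the same groups. In myeloid nuclei the summed oligodendrocyte markers, 5 of a list of 6 found in the matrix and none of them at 0, were at 12.6% of their oligodendrocyte level in saline animals, 15.2% in ASO animals and 22.7% in OTV animals (means of 3). The corresponding TARS3 shares were 4.54%, 6.60% and 11.9%. TARS3 in myeloid nuclei thus lay below the share of the markers in every group. In OPCs the markers were at 8.17%, 12.1% and 15.4%, and TARS3 at 17.4%, 17.3% and 19.1%. In astrocytes the markers were at 6.12%, 7.69% and 10.6%, and TARS3 at 13.8%, 14.9% and 15.8%. The part of oligodendrocyte RNA in the TARS3 changes, or in those of TARS2 in the same types, was not tested.

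**Figure D4:**
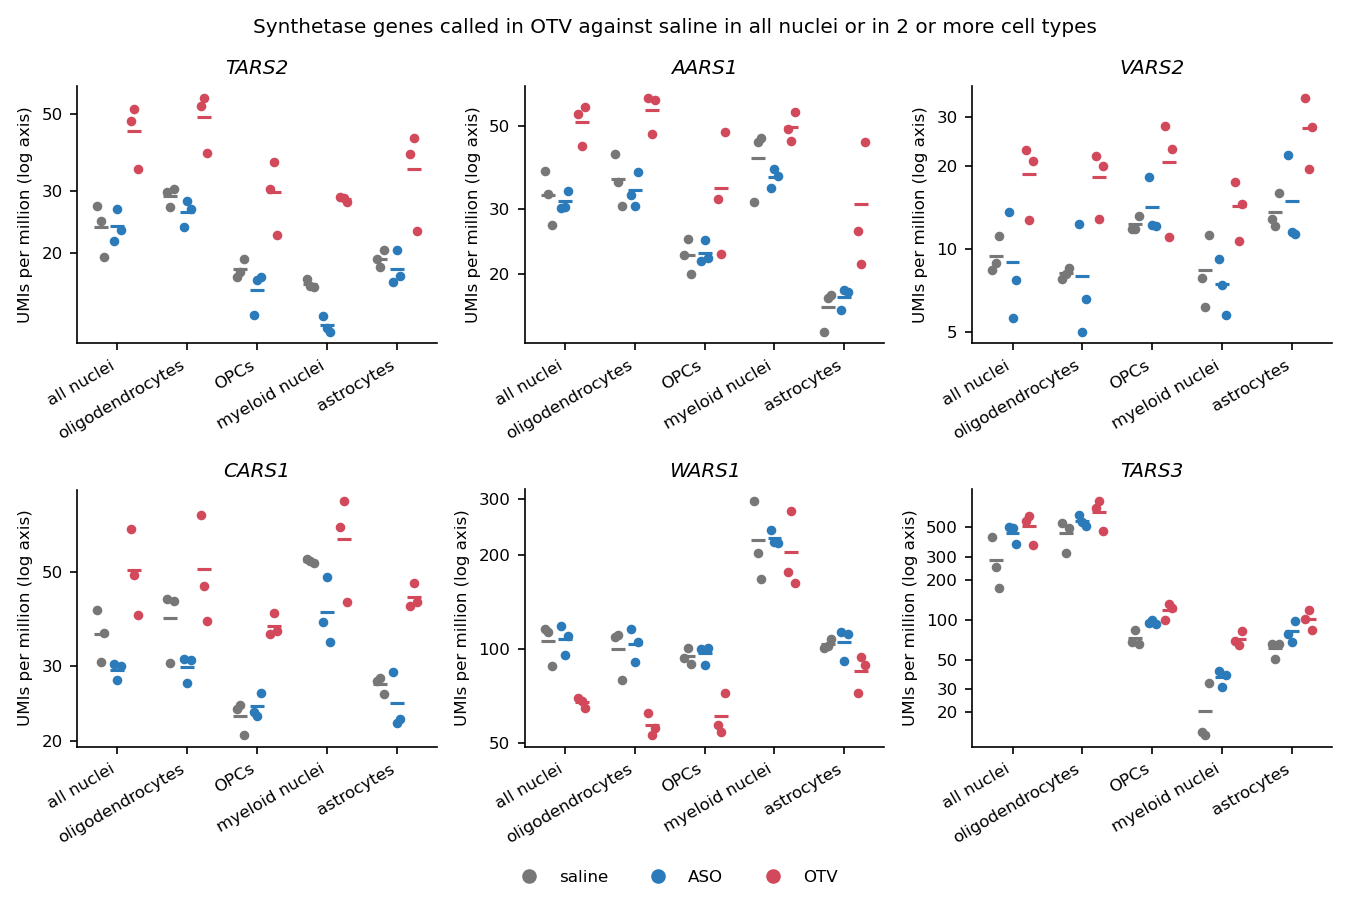
CPM (log axis) of the 6 synthetase genes called in OTV against saline in all nuclei or in 2 or more cell types, 1 point per animal, with group means as bars. OTV animals lie above all others for TARS2 in every panel position and below all others for WARS1 in all nuclei, oligodendrocytes and OPCs.

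**Figure D5:**
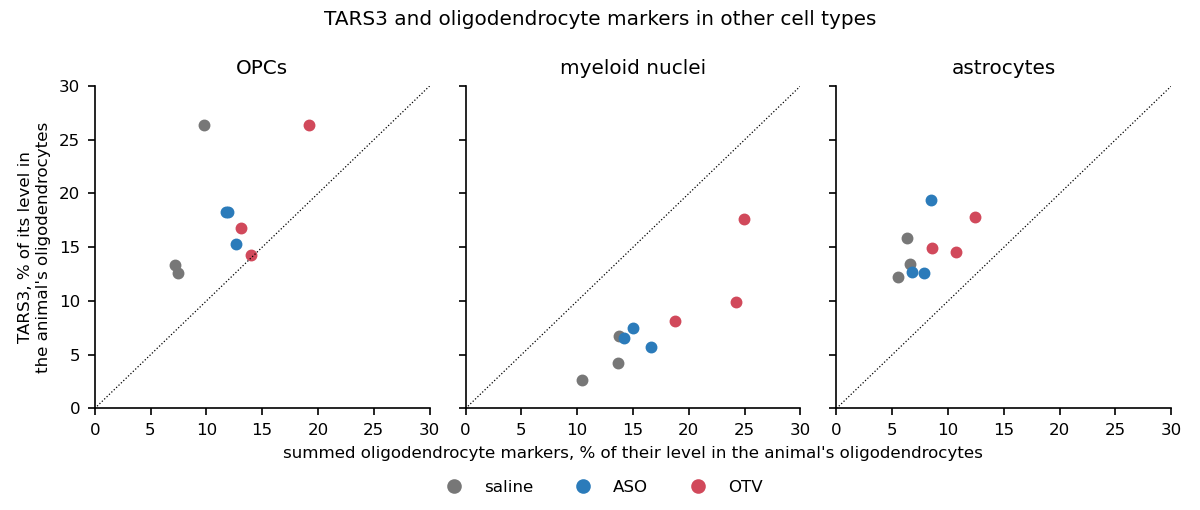
TARS3 (y axis) against summed oligodendrocyte markers (x axis) in OPCs, myeloid nuclei and astrocytes, each as a percentage of its level in the oligodendrocytes of the same animal, 1 point per animal. The dotted line marks equal shares. Both quantities are highest on average in OTV animals, and all 9 myeloid points lie below the line.

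The remaining calls of OTV against saline were each made in 1 fit. In OPCs LARS1, the cytosolic leucyl enzyme and a sensor of leucine, rose by 0.53 (SE 0.13, adjusted p = 0.0167), from 81.8, 80.5 and 67.3 CPM to 91.0, 103 and 129. Its mitochondrial counterpart LARS2 fell there by 0.43 (SE 0.11, adjusted p = 0.0209), from 66.5, 63.4 and 54.4 CPM to 45.5, 42.6 and 44.3. The pair thus moved in opposite directions in OPCs. RARS1, the cytosolic arginyl enzyme, fell in OPCs by 0.37 (SE 0.11, adjusted p = 0.0365). In astrocytes HARS2, the mitochondrial histidyl enzyme, fell by 0.88 (SE 0.20, adjusted p = 0.0159), from 24.98, 27.5 and 23.6 CPM in saline to 13.5, 14.2 and 12.7 in OTV animals. YARS2, the mitochondrial tyrosyl enzyme, fell there by 1.02 (SE 0.27, adjusted p = 0.0330), from 21.9, 16.2 and 14.8 CPM to 9.97, 7.98 and 6.94. ASO animals lay with the saline animals for both. In myeloid nuclei IARS2, the mitochondrial isoleucyl enzyme, fell by 0.52 (SE 0.14, adjusted p = 0.0380). In neurons AARS2, the mitochondrial alanyl enzyme, rose by 1.38 (SE 0.34, adjusted p = 0.0434), from 13.4, 9.57 and 10.5 CPM in saline to 44.3, 25.5 and 29.2 in OTV animals. Markers of other types in the neuronal nuclei also differed: endothelial markers were at 39.2 to 1170 CPM in OTV and 6.64 to 437 in saline animals, and oligodendrocyte markers at 263 to 810 and 196 to 354. Striatal markers in these nuclei were at 335 to 531 in OTV and 383 to 7217 in saline animals. The part of these markers in the AARS2 value was not tested, and the call was lost with a term for the region score. The IARS2 call was lost under 14 of 16 alternatives, that of RARS1 under 11 of 16 and that of AARS2 under 10 of 15. Those of HARS2, YARS2, LARS1 and LARS2 were lost under 5, 8, 4 and 3 of 16. For LARS1 the losses included leaving out saline replicate 3 (0.45) or OTV replicate 3 (0.39). For LARS2 they included leaving out saline replicate 1 (-0.37) or 2 (-0.44) or OTV replicate 2 (-0.42).

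ASO animals against saline animals asked what the single intrathecal dose changed. No synthetase gene was called in any of the 6 fits, by edgeR or by DESeq2. Few features were called at all: 0.032% in all nuclei, 0.394% in oligodendrocytes, 0.262% in OPCs, 0.197% in myeloid nuclei, 0.0147% in astrocytes and 0% in neurons. At an unadjusted edgeR p under 0.05 there was 1 gene in all nuclei (YARS1), 0 in oligodendrocytes, 1 in OPCs (TARS3), 4 in myeloid nuclei (TARS1, TARS2, TARS3 and EARS2), 1 in astrocytes (WARS2) and 1 in neurons (TARS3). At that threshold were 9.51% of all features in all nuclei, 11.9% in oligodendrocytes, 9.61% in OPCs, 10.3% in myeloid nuclei, 6.1% in astrocytes and 2.47% in neurons, so these counts are near or below the background. The median log2 fold change in all nuclei was 0.03 over cytosolic and -0.06 over mitochondrial genes, beside -0.01 over all features. TARS2 had log2 fold changes of -0.43 (SE 0.19) in myeloid nuclei and -0.19 (SE 0.16) in oligodendrocytes, and WARS1 0.01 (SE 0.14) in oligodendrocytes. Leaving out saline replicate 3 gave 1 called gene in myeloid nuclei.

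OTV animals were also compared with ASO animals, which differ from them in route, dose number and agent. This comparison shares the OTV animals with the one against saline, so the 2 are not independent. In all nuclei 8 of 36 genes were called (22.2%) against 17.9% of features, in oligodendrocytes 9 of 36 (25%) against 26.3%, and in OPCs 14 of 35 (40%) against 27.2%. Myeloid nuclei had 7 of 35 (20.0%) against 20.5%, astrocytes 9 of 35 (25.7%) against 22%, and neurons 2 of 30 (6.67%) against 5.23%. The OPC share was above that of all features, and with 1 animal left out 6 to 10 genes were called there. TARS2 was called in all nuclei and all 4 types, with log2 fold changes of 0.99 (SE 0.16) in oligodendrocytes and 1.18 (SE 0.19) in myeloid nuclei. WARS1 was called in all nuclei, oligodendrocytes (-0.77, SE 0.15) and OPCs (-0.57, SE 0.12). TARS1 was called higher in all nuclei and the 4 types, and QARS1, the cytosolic glutaminyl enzyme, in all nuclei and astrocytes, though neither was called against saline. The QARS1 calls were lost under 11 of 16 alternatives in all nuclei and 12 of 16 in astrocytes. Those of TARS1 were lost under 11 of 16 in all nuclei, 6 of 17 in oligodendrocytes, 6 of 16 in OPCs, 7 of 16 in myeloid nuclei and 5 of 16 in astrocytes. In myeloid nuclei RARS2 was lower in OTV animals, at 84.1, 82.3 and 63.7 CPM against 121, 153 and 121 in ASO animals (log2 fold change -0.79, SE 0.20, adjusted p = 0.0206), a call lost under 4 of 16 alternatives. Saline animals were at 99.1, 86.8 and 137 CPM, above the OTV animals and overlapping the ASO animals. The summed myeloid markers in the same nuclei were also lower in OTV animals, at 4300 to 5163 CPM against 5401 to 6266 in ASO and 5498 to 6253 in saline animals, while oligodendrocyte markers there were at 992 to 1579, 878 to 1432 and 684 to 830 CPM. Their part in the RARS2 difference was not tested. Against saline RARS2 was not called (-0.52, SE 0.20, adjusted p = 0.117).

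Whether a change differed between the 4 types was tested by edgeR as an interaction of cell type and group, with the animal as a block, in the 35 synthetase genes that passed the filter. For OTV against saline 0 of 35 were called, against 3.53% of features. TARS3 came nearest, with an adjusted p of 0.0739. At an unadjusted p under 0.05 there were 6 genes (TARS3, NARS2, HARS2, EPRS1, YARS2 and IARS1), near the 17.8% of all features. For ASO against saline 0 were called (features 0.957%) and 1 gene, WARS2, had an unadjusted p under 0.05 (features 10.6%), and for OTV against ASO 1 was called (features 10.4%). That gene was NARS2, the mitochondrial asparaginyl enzyme, with an adjusted p of 0.0293, a call lost when any of 6 of the 9 animals was left out (adjusted p up to 0.163) and with DESeq2 size factors (0.0508). Its log2 fold change of OTV against ASO was 0.14 (SE 0.14) in oligodendrocytes, 0.08 (SE 0.13) in OPCs, -0.18 (SE 0.18) in astrocytes and -0.45 (SE 0.18) in myeloid nuclei, and in no single type was it called.

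Genes that work beside the synthetases were described from 5 lists. The alternatives were run for synthetase genes only, so the stability of calls in these lists was not tested. Of the 3 scaffold genes of the cytosolic synthetase complex, AIMP1 and AIMP2 fell in OTV against saline in all nuclei and oligodendrocytes, and EEF1E1 was not called. AIMP1 fell in OPCs, myeloid nuclei and neurons as well. In oligodendrocytes AIMP2 was at 5.92 ± 0.84 CPM in OTV and 11 ± 0.5 in saline animals (log2 fold change -0.86, SE 0.16, adjusted p = 0.00669), and AIMP1 at 22.5 ± 1.9 and 31.0 ± 0.7 CPM (-0.42, SE 0.11, adjusted p = 0.0274; n = 3 each, edgeR). Of the 26 measured genes of the amino acid response, the pathway by which uncharged transfer RNA activates translation control, 3 rose and 0 fell in all nuclei, where 5.72% of all features were called higher and 9.94% lower, with a median log2 fold change of 0.31 beside -0.06 over all features. Within types the median was smaller, at 0.16 in oligodendrocytes, 0.10 in OPCs, 0.06 in myeloid nuclei, 0.05 in astrocytes and 0.14 in neurons. The 3 that rose in all nuclei were GCN1, which relays the signal, ATF4, its transcription factor, and PSPH, a serine synthesis enzyme. ATF4 rose in all nuclei, oligodendrocytes and OPCs, by 1.15 (SE 0.33, adjusted p = 0.0463) in all nuclei. GCN1 rose in the same fits and in astrocytes, by 0.79 (SE 0.13, adjusted p = 0.00631) in all nuclei. Members of this list also fell: EIF2S1, a subunit of the initiation factor that the pathway acts on, in OPCs (-0.93) and neurons (-1.05), MTHFD2 in myeloid nuclei (-0.92) and ALDH1L2 in neurons (-1.78), both enzymes of mitochondrial folate metabolism. In OPCs 4 of 24 were called higher and 1 lower, in myeloid nuclei 2 of 22 and 1, and in neurons 2 of 18 and 2.

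Of 13 measured genes for mitochondrial amidotransfer, formylation and transfer RNA maturation, 0 were called in all nuclei by edgeR (2 at an unadjusted p under 0.05, where 31% of all features were). TRNT1, which adds the terminal bases to transfer RNA, fell in oligodendrocytes and myeloid nuclei, and GATC, a subunit of the amidotransferase, fell in OPCs and myeloid nuclei. CDK5RAP1, which modifies transfer RNA, rose in oligodendrocytes (0.36, adjusted p = 0.0499). None of the 7 measured elongation factor genes and none of the 5 measured genes for transfer RNA export, editing and the selenocysteine branch was called in all nuclei (1 and 0 at an unadjusted p under 0.05). In other fits the elongation factor EEF1A2 rose in OPCs (1.17) and neurons (1.60), EEF2 rose in myeloid nuclei (1.15) and EEF1A1 fell in astrocytes (-0.63). DTD2, an editing enzyme, fell in oligodendrocytes and OPCs, and XPOT, which exports transfer RNA, fell in oligodendrocytes (-0.42). The shares of all features called in each of these fits, given above for the synthetase genes, apply to these lists too. In ASO against saline edgeR called none of the genes of these 5 lists in any fit, and in all nuclei 2 of them, 1 each of the amino acid response and the mitochondrial list, had an unadjusted p under 0.05, against the 9.51% of features given above. The 5 genes whose profile over the 9 animals in all nuclei was most like that of TARS2, out of 11177 compared, were ACLY (Pearson r = 0.967), PDK1 (0.960), NECAB3 (0.959), RABGGTA (0.948) and FAM120B (0.948). The animals share groups and libraries, and these values are a description.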

How the data were processed

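Single-nucleus RNA-seq was read from 9 libraries, 1 per animal, 3 animals per group. The authors deposited raw UMI counts per feature and nucleus, with the animal, cluster and cell type of each nucleus, and those cell types were used as given. Per the submitters' processing notes the tools were Cell Ranger 6.1.2 and Seurat 4. The notes name a human build, while features carry cynomolgus identifiers or symbols, and the labels state neither filters nor doublet removal. No doublet caller was run. Libraries held 2956 to 11992 nuclei, with median depths of 2579 to 7791 UMIs.

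For each animal, UMIs were added up within each cell type and over the whole library, and these sums were tested with edgeR 4.0.16 in R 4.3.3 (quasi-likelihood, robust, TMM, filterByExpr by group, all 9 animals in each fit). P values were adjusted by Benjamini-Hochberg over all features tested, and the steps were tested on simulated data. Levels (CPM) are counts per 1000000 UMIs of the animal in that type, without TMM scaling. All 36 genes matched RefSeq's table, and 13 overlap another gene there, 5 of them a protein-coding one. Some of the genes enter the counts and sums and are not reported here by name.

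Given with every animal's value were synthetase genes called in OTV or ASO against saline in all nuclei or in at least 2 types, and in each set the gene with the largest ratio between types. Genes called in 1 fit and the other genes named in the levels were added after their values were seen. Members and lists were chosen with earlier results of these data known. Alternatives were DESeq2 1.42.0, its size factors in edgeR, no count filter, the 6 animals compared, and thinned sums. Others were a region score as a term, leaving out animals, and oligodendrocytes with cluster 8 left out. The count of genes with the same highest type in every animal was also tried with TMM-scaled CPM. The region score is the difference between diencephalic and telencephalic patterning genes in astrocytes.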

Additional observations from a re-analysis of the deposited data

Results flagged for a closer look

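NARS2, the mitochondrial asparaginyl-tRNA synthetase, was the synthetase gene whose difference between OTV and ASO animals itself differed between the 4 cell types (edgeR interaction test, adjusted p = 0.0293). In myeloid nuclei NARS2 was at 110, 89.5 and 61.0 CPM in OTV animals and 128, 120 and 111 in ASO animals, while in oligodendrocytes it was at 68.9, 56.9 and 54.8 against 60.5, 59.5 and 54.1. In that joint fit of the 4 types the log2 fold change in myeloid nuclei lay 0.69 below that in oligodendrocytes, while the separate fits gave -0.45 and 0.14. With 1 animal left out the adjusted p ran from 0.0212 to 0.163, and it was above 0.05 without any of the ASO animals, saline replicate 2 or OTV replicate 2 or 3, and with DESeq2 size factors it was 0.0508. In the same myeloid nuclei the summed myeloid markers were at 4300 to 5163 CPM in OTV and 5401 to 6266 in ASO animals, and the oligodendrocyte markers at 22.7% and 15.2% of their oligodendrocyte level on average. Their part in the NARS2 difference was not tested.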

How the results depend on the processing

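Calls of synthetase genes made in the main fits gave 1221 values under the alternatives, of which 752 kept the call, 469 lost it and 0 changed sign. Only calls of OTV against saline or against ASO were followed in this way, so a change of sign was unlikely from the start. Genes not called in the main fits were not followed. The values include adjusted p values of the NARS2 test of differences between types, which have no sign. The cause of the lost calls was not tested, except that alternatives with fewer animals or thinned sums have less data by construction. Counts of called genes below stand beside 3, 5, 7, 3, 7 and 1 for OTV against saline (all nuclei, oligodendrocytes, OPCs, myeloid nuclei, astrocytes, neurons) and 8, 9, 14, 7, 9 and 2 for OTV against ASO. The share of all features called under an alternative is given only for the DESeq2 Wald test in all nuclei. The other counts therefore do not tell whether calls of synthetase genes moved apart from those of all features.

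With the DESeq2 Wald test, OTV against saline had 13 of 36 genes called in all nuclei, where 24.4% of all features were called. The share of synthetase genes thus lay above that of all features, the reverse of the edgeR fit. The same test had 1 in myeloid nuclei and 3 in neurons, and OTV against ASO had 13 in all nuclei and 9 in OPCs. With DESeq2 size factors in edgeR, OTV against saline had 2 in neurons, and the test of differences between types had 0 for OTV against ASO. Without a count filter, OTV against saline had 1 in myeloid nuclei and 0 in neurons, and OTV against ASO 5 in all nuclei, 8 in OPCs and 0 in neurons. With the 6 animals compared, OTV against saline had 1 in all nuclei, 1 in myeloid nuclei and 4 in astrocytes, and OTV against ASO 7 in OPCs, 5 in astrocytes and 0 in neurons. With a term for the region score, OTV against saline had 1 in myeloid nuclei, 2 in astrocytes and 0 in neurons, and OTV against ASO 5 in all nuclei, 8 in OPCs, 4 in astrocytes and 0 in neurons. With sums thinned to equal totals, OTV against saline had 2 in oligodendrocytes, 1 in astrocytes and 0 in neurons, and OTV against ASO 6 in OPCs, 1 in astrocytes and 0 in neurons. With 2 animals a group, replicate 3 of each left out (chosen after seeing the data), OTV against saline had 2 in oligodendrocytes, 1 in myeloid nuclei, 2 in astrocytes and 0 in neurons, and OTV against ASO 5 in all nuclei, 4 in oligodendrocytes, 6 in OPCs, 4 in myeloid nuclei, 1 in astrocytes and 0 in neurons.

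With 1 animal left out, OTV against saline had 0 to 4 genes in all nuclei (0 without OTV replicate 1, 1 without saline replicate 2 or OTV replicate 3), 2 to 6 in oligodendrocytes (2 without saline replicate 2, 3 without saline replicate 1, OTV replicate 1 or OTV replicate 3), 4 to 8 in OPCs (4 without saline replicate 1 or 2), 1 to 3 in myeloid nuclei (1 without ASO replicate 1, any saline animal, or OTV replicate 2 or 3), 0 to 6 in astrocytes (0 without saline replicate 1 or 2, 2 without OTV replicate 3, 3 without OTV replicate 1, 4 without saline replicate 3) and 0 to 3 in neurons. OTV against ASO had 1 to 9 in all nuclei, 3 to 9 in oligodendrocytes, 6 to 10 in OPCs, 2 to 7 in myeloid nuclei, 2 to 9 in astrocytes and 0 to 2 in neurons. ASO against saline had 0 throughout, except 0 to 1 in myeloid nuclei. The test of differences between types had 0 to 1 for OTV against saline and 0 to 1 for OTV against ASO. No paired analysis was possible because the labels give no number that links animals of different groups. Depth limits MARS2 and PARS2 most, and neurons of ASO replicates 1 and 2.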
